A study of Schmidtea mediterranea with 6 samples.

Results

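Among the abundant transcripts of *Schmidtea mediterranea*, a freshwater planarian, 100 were modestly higher after knockdown of *nkx2.2*, a transcription factor enriched in the intestine. They are 100 of the 28069 transcripts of the table and of the 1828 whose mean level in controls was at least 100 CPM (counts scaled to a library total of 1000000). A transcript was taken as a member when its CPM in each *nkx2.2(RNAi)* library was at least 1.2 times the mean control CPM and above all 3 control libraries, and when the ratio of the 2 group means stayed under 2. *slc22a6* (dd_Smed_v6_1159_0_1), an intestinal marker that also meets these criteria, is left out. These values chose the members, so their levels in this comparison are a description and no test is attached to them.

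All animals were uninjured asexual planarians of the clonal line CIW4. *nkx2.2(RNAi)* planarians received dsRNA against *nkx2.2*, and control planarians received dsRNA of *egfp*, a gene that planarians lack. Both groups were fed 1 time with 1 µg dsRNA in liver and then went without food for 7 days. Each group has 3 libraries, and each library is RNA pooled from 6 to 10 whole animals by the labels (the study's methods give a smaller number), so that fewer cells of a type and less RNA per cell cannot be told apart.

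Library totals ranged from 55.9 to 65.5 M counts in *nkx2.2(RNAi)* and from 53.3 to 59.4 M in controls. The targeted transcript, *nkx2.2* (dd_Smed_v6_2716_0_1), stood at 9.54, 8.21 and 8.28 CPM in *nkx2.2(RNAi)* libraries, against 176, 220.0 and 179 CPM in control libraries. Of the markers of intestine, *apob-1* (dd_Smed_v6_636_0_1) was at 4.05 to 6.52 CPM in *nkx2.2(RNAi)* and at 674 to 735 CPM in controls. *ctsla* (dd_Smed_v6_267_0_1) was at 707 to 1145 CPM in *nkx2.2(RNAi)*, against 2392 to 2789 CPM in controls. *apob-2* (dd_Smed_v6_194_0_1) was at 232 to 399 CPM in *nkx2.2(RNAi)*, against 588 to 1157 CPM in controls. *npc2* (dd_Smed_v6_73_0_1) overlapped between the groups, at 352 to 464 CPM in *nkx2.2(RNAi)* and 426 to 446 CPM in controls. The intestinal marker *slc22a6*, left out of the members, was higher, at 278 to 326 CPM in *nkx2.2(RNAi)*, against 185 to 214 CPM in controls. Markers of neoblasts (the stem cells), epidermal progenitors, cholinergic neurons and pharynx, which are *piwi-1*, *tgs-1*, *prog-1*, *ChAT* and *laminin*, had ratios between 0.87 and 0.97, and none was past an FDR of 0.05 (edgeR exact test).

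Members are named by their best human BLAST match in most cases, and else by their best match in mouse, zebrafish, *Drosophila* or *C. elegans*. The matches are those listed in the study's supplementary annotation, and the names do not establish orthology. The best match over all these animals can be another relative, as for *ACTN1* (zebrafish *actn4*), *CAP2* (zebrafish *cap1*), *MIB1* (zebrafish *mib2*) and *LIMA1* (mouse *Xirp2*). A match was found for 79 members. A further 18 members were listed without one, and 3 members were not in the annotation used here. The roles given are those known for the matched genes in other animals. Proteins made for secretion or for lysosomes fold in the endoplasmic reticulum (ER) with the help of resident chaperones, among them HSPA5 (BiP) and GP96. Related chaperones of the HSP70 and HSP90 families work in the cytosol and in mitochondria. The methionine cycle makes S-adenosylmethionine, the methyl donor of the cell. Cathepsins are proteases that digest proteins in lysosomes, and in planarians the intestinal phagocytes digest food inside the cell.

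Together the members took 4.22% of all counts in *nkx2.2(RNAi)* libraries and 2.95% in control libraries. Their summed level was 41209, 42793 and 42741 CPM in *nkx2.2(RNAi)* libraries, against 28256, 29731 and 30414 CPM in control libraries. The ratio of group means ran from 1.23 to 1.80, with a median of 1.38. For 59 members it was below 1.4, for 19 it lay between 1.4 and 1.5, and for 22 it was 1.5 or more. Across all 1828 abundant transcripts the median ratio was 1.04, and 61.2% of them had a ratio above 1. The spread within a group was smaller than these ratios for most members, with a median coefficient of variation of 4.55% in *nkx2.2(RNAi)* and 6.57% in controls.

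**Figure D1:**
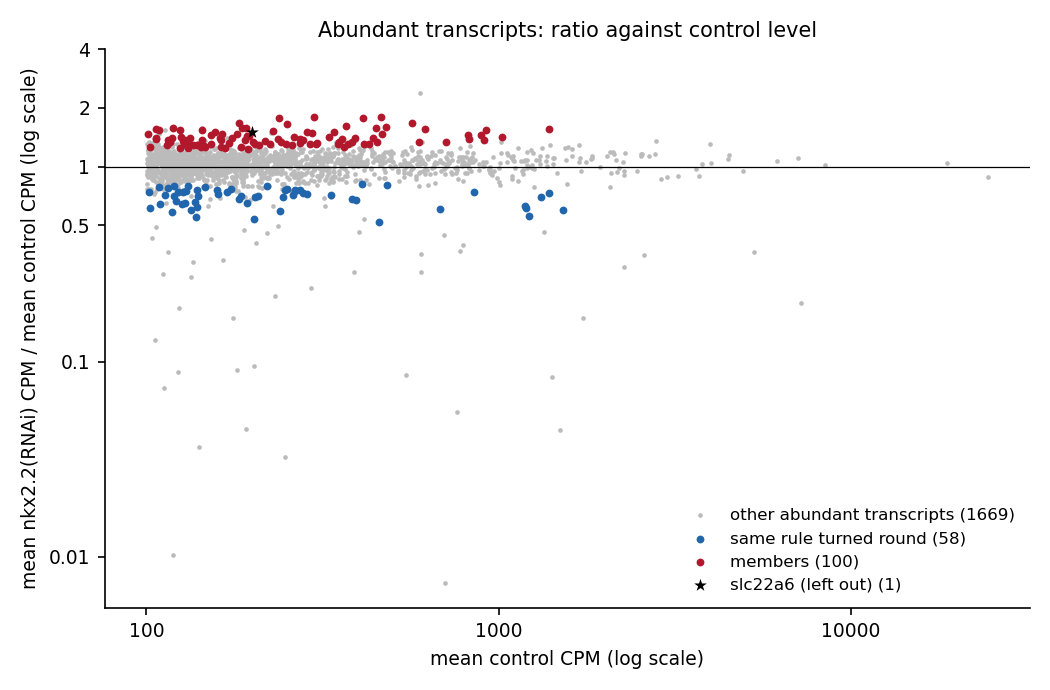
Each point is 1 of the 1828 abundant transcripts, with its mean control CPM on the x axis and the ratio of mean *nkx2.2(RNAi)* CPM to mean control CPM on the y axis, both on log scales. The 100 members (red) form a band between ratios of 1.23 and 1.80, the 58 transcripts of the same rule turned round (blue) lie below 1, and the star marks *slc22a6*, which was left out.

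By the edgeR exact test at an FDR of 0.05, 98 of the 100 members were called higher, where 5.18% of all 14871 tested transcripts and 10.8% of the abundant ones were. By the quasi-likelihood test 83 were, where 3.04% of all tested and 5.63% of the abundant ones were, and by DESeq2 all 100 were, where 4.96% of all tested ones were. All 100 members passed the filter on low counts. Separation of the 3 libraries of each group was part of the rule, and 25% of the abundant transcripts had it in this direction. Since the rule used this contrast, nothing is read from these counts. The number of members leans on single libraries. Without *nkx2.2(RNAi)* replicate 1 the rule found 199 transcripts, and without any of the other 5 libraries it found 91 to 135. The 199 hold the 100 members, which is largely fixed, since leaving out a library of this group loosens the limits on each library. With CPM scaled by TMM factors it found 97, of which 80 were members.

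The abundance of the members spanned a wide range. Mean control levels ran from 101 to 1388 CPM with a median of 206 CPM, and 48 members were below 200 CPM while 11 reached 500 CPM or more. Per length, as TPM (counts divided by length and scaled to a fixed library total, computed from the counts and transcript lengths), the median control level was 150.2 for members and 149.5 for all abundant transcripts. Members were between 228 and 7261 bases long with a median of 2026 bases, against 1750 bases (median) for all abundant transcripts.

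To describe the members by role, 14 lists were made from the names and descriptions of the matches. They hold 241 annotated transcripts, of which 53 are members, and 47 members fall in no list. The annotation is partial, and 89 members, with or without a match, are listed only in a table that was ordered by the change seen in these same libraries, so a high share of called transcripts in a list is built in and is not independent evidence of its direction. Of the 234 listed transcripts that were tested, 119 were called higher and 39 lower by the edgeR exact test, where 5.18% and 5.43% of all tested transcripts were. These shares were 3.04% and 3.42% by the quasi-likelihood test and 4.96% and 5.77% by DESeq2. Without *nkx2.2(RNAi)* replicate 2, *nkx2.2(RNAi)* replicate 3 or control replicate 1, the 119 became 66, 69 or 78. Among those of them from a table ordered by identifier alone, 59 were tested, 7 were called higher and 3 lower, and 3 were members. That whole table had 1029 tested transcripts, with 46 called higher and 51 lower.

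**Figure D2:**
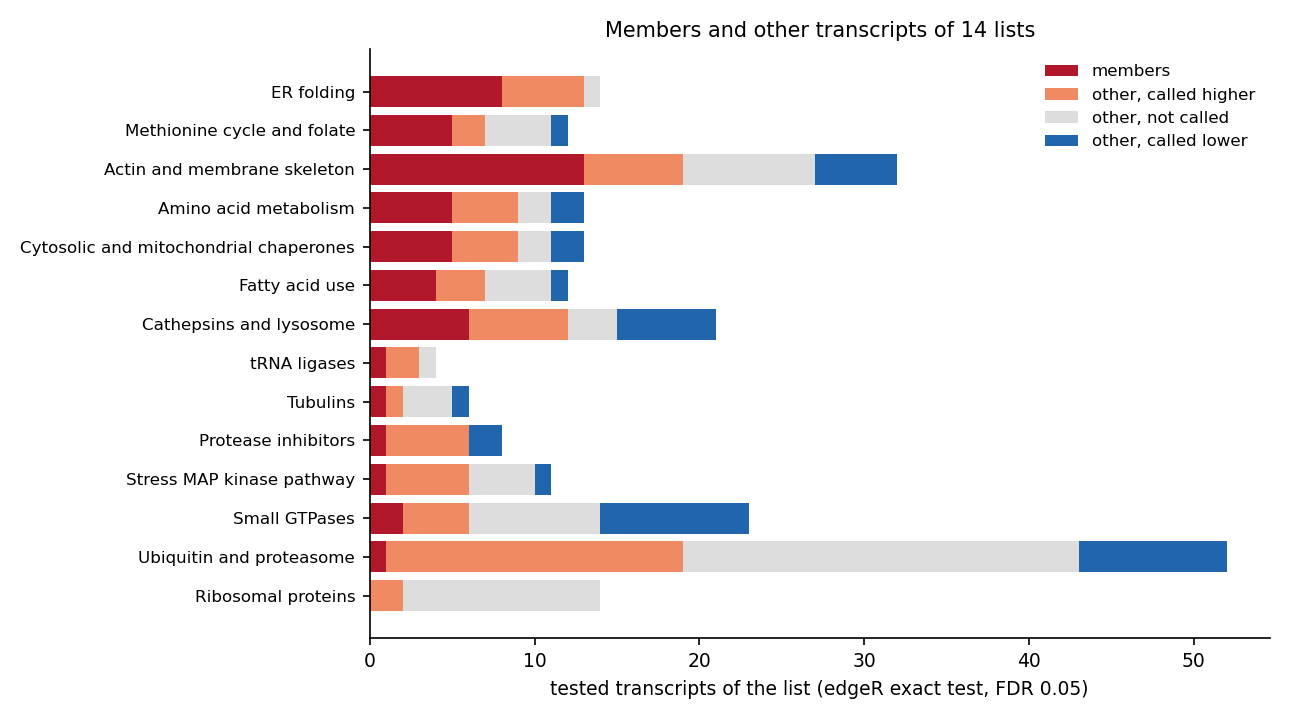
Each bar is 1 of the 14 lists, its length the number of tested transcripts, divided into members and into other transcripts called higher, not called or called lower by the edgeR exact test at an FDR of 0.05. ER folding has 8 members of 14 and no transcript called lower, while cathepsins and lysosome has 6 members and 6 transcripts called lower.

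Of 14 annotated transcripts for protein folding in the ER, 8 were members, which the rule chose as higher. Counting these, 13 were called higher by the edgeR exact test and 12 by the quasi-likelihood test, where 5.18% and 3.04% of all tested transcripts were. Only 2 of the 14 stand in the table ordered by identifier, so the counts over all 14 are not independent evidence of a direction. Of these 2, 1 was called higher by the exact test and 0 by the quasi-likelihood test (1 at an unadjusted p under 0.05, and 1 by DESeq2). None of the 14 was called lower by either test or by DESeq2, nor was any lower at an unadjusted p under 0.05 (0 of 14 in the exact test). The summed level of the 8 members was 3935, 3965 and 3694 CPM in *nkx2.2(RNAi)* libraries, against 2469, 2485 and 2704 CPM in control libraries. The largest ratio was that of *hsp90b1* (dd_Smed_v6_758_1_1), which matches GP96, the HSP90 chaperone of the ER. It stood at 858, 847 and 799 CPM in *nkx2.2(RNAi)* libraries, against 420.3, 474 and 495 CPM in control libraries, a ratio of 1.80. *HSPA5* (dd_Smed_v6_511_0_1), the HSP70 chaperone of the ER lumen, was at 715, 776 and 693 CPM in *nkx2.2(RNAi)* libraries and 386, 411 and 434 CPM in control libraries, a ratio of 1.77. The groups were well apart for both, the lowest *nkx2.2(RNAi)* library being 1.613 and 1.597 times the highest control library.

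The other members of the ER list had smaller ratios. *HYOU1* (dd_Smed_v6_2324_0_1), a large HSP70 relative of the ER, was at 199, 190.1 and 174.7 CPM in *nkx2.2(RNAi)* libraries and 107, 133 and 118 CPM in control libraries, a ratio of 1.58. *CALR* (dd_Smed_v6_220_0_1), calreticulin, a calcium-binding chaperone for glycoproteins, was the most abundant member of the list, at 1164, 1157 and 1083 CPM in *nkx2.2(RNAi)* libraries and 826, 766 and 876 CPM in control libraries, a ratio of 1.38. *CALU* (calumenin, dd_Smed_v6_1417_0_1), *PPIB* (a prolyl isomerase, dd_Smed_v6_686_0_1), *ERP29* (dd_Smed_v6_1502_0_1) and *MOGS* (dd_Smed_v6_2406_0_1), the glucosidase that starts the trimming of N-glycans, had ratios of 1.36, 1.35, 1.34 and 1.26. In 7 of the 8 members *nkx2.2(RNAi)* replicate 3 was the lowest of its group, and in 5 of them control replicate 3 was the highest of its group. The assembly component of *hsp90b1* holds a second transcript, dd_Smed_v6_758_0_1 (3457 bases, against 2605 for the member), at 198, 172 and 183 CPM in *nkx2.2(RNAi)* libraries and 174, 188 and 173 CPM in control libraries. The groups overlapped there, and the ratio was 1.03. It was the only other transcript in an assembly component of a member.

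ER transcripts outside the members were named after their values were seen. Of these, *CANX* and *DNAJC3* had values close to the criteria. *CANX* (calnexin, dd_Smed_v6_632_0_1), the membrane-bound relative of calreticulin, averaged 533 ± 34.7 CPM in *nkx2.2(RNAi)* and 417 ± 23.9 CPM in controls (SD, n = 3 each), with a log2 fold change of 0.41 and an edgeR exact test FDR of 0.0018. *DNAJC3* (dd_Smed_v6_4016_0_1), an ER co-chaperone, averaged 97.2 CPM in *nkx2.2(RNAi)* and 68.5 CPM in controls, a ratio of 1.42, but lies under the limit of 100 CPM. *TMX3* (dd_Smed_v6_10003_0_1), a disulfide isomerase, was the 1 listed ER transcript not called (log2 fold change -0.09, edgeR exact test FDR 0.68).

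Chaperones of the cytosol and mitochondria included 5 members of 13 tested transcripts. By the edgeR exact test 9 of the 13 were called higher and 2 lower, where 5.18% and 5.43% of all tested transcripts were. By the quasi-likelihood test 7 and 2 were, where 3.04% and 3.42% of all tested ones were. The 2 called lower are not members and are not named here. Of the 3 in the table ordered by identifier, 1 was a member. By each of these tests 1 of the 3 was called higher and 0 lower, with 1 lower at an unadjusted p under 0.05. *HSPA8* (dd_Smed_v6_320_0_1), the constitutive HSP70 of the cytosol, was the most abundant of all members by CPM. It stood at 2206, 2193 and 2111 CPM in *nkx2.2(RNAi)* libraries, against 1329, 1376 and 1459 CPM in control libraries, a ratio of 1.56. *HSPE1* (dd_Smed_v6_421_0_1), the small subunit of the mitochondrial chaperonin, was at 318, 311 and 285 CPM in *nkx2.2(RNAi)* libraries and 168, 146 and 234 CPM in control libraries. Its ratio was 1.67, but control replicate 3 was far above the other 2 controls. *ST13* (dd_Smed_v6_668_0_1), a co-chaperone of HSP70, had a ratio of 1.39, *HSP90AA1* (dd_Smed_v6_678_0_1), the cytosolic HSP90, 1.32, and *HSPA4L* (dd_Smed_v6_1087_0_1), an HSP110-type exchange factor, 1.25. *TCP1* (dd_Smed_v6_1025_0_1), a subunit of the cytosolic chaperonin and no member, was about level, at 768, 750.4 and 739 CPM in *nkx2.2(RNAi)* libraries and 739, 684 and 742 CPM in control libraries.

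Transcripts of the methionine cycle and of folate metabolism included the member with the largest ratio. This was *MAT2A* (dd_Smed_v6_907_0_1), which makes S-adenosylmethionine from methionine and ATP. It stood at 541, 533 and 544 CPM in *nkx2.2(RNAi)* libraries, against 305, 281 and 309.8 CPM in control libraries, a ratio of 1.80. A second transcript with the same match, dd_Smed_v6_1580_0_1, was at 219, 235 and 208 CPM in *nkx2.2(RNAi)* libraries and 143, 139 and 149 CPM in control libraries, a ratio of 1.54. Another, dd_Smed_v6_10278_0_1, which is no member, was much rarer at 12.7 CPM on average in *nkx2.2(RNAi)* and 11.3 CPM in controls, and it was not called (log2 fold change 0.24, edgeR exact test FDR 0.24). The other members were *BHMT* (dd_Smed_v6_873_0_1), which remakes methionine from homocysteine with betaine, *CHDH* (dd_Smed_v6_1744_0_1), which makes the precursor of betaine from choline, and *MTHFD1* (dd_Smed_v6_1858_0_1), a folate enzyme that carries one-carbon units. *BHMT* averaged 546 ± 46.3 CPM in *nkx2.2(RNAi)* and 391 ± 23.6 CPM in controls, and *CHDH* averaged 471 ± 19.2 CPM in *nkx2.2(RNAi)* and 351 ± 14.3 CPM in controls (SD, n = 3 each). *MTHFD1* varied little within groups, at 184, 178 and 183 CPM in *nkx2.2(RNAi)* libraries and 143, 137 and 139.7 CPM in control libraries. In all, 5 of 12 tested transcripts of this list were members, and 7 were called higher and 1 lower by the edgeR exact test. By the quasi-likelihood test 6 and 0 were, with 1 lower at an unadjusted p under 0.05. Over all tested transcripts these shares were 5.18% and 5.43%, and 3.04% and 3.42%. The list has 2 transcripts in the table ordered by identifier, with 0 members and 0 called by either test. Of these 2, 1 was higher at an unadjusted p under 0.05 in the quasi-likelihood test. *MTR* (dd_Smed_v6_10302_0_1), methionine synthase, the folate-dependent route from homocysteine to methionine, was not called (log2 fold change 0.14, edgeR exact test FDR 0.43).

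Amino acid metabolism had 5 members of 13 tested transcripts. By the edgeR exact test 9 of the 13 were called higher and 2 lower, where 5.18% and 5.43% of all tested transcripts were. The 2 called lower are not members and are not named here. Of the 4 in the table ordered by identifier, 1 was a member, 1 was called higher and 1 lower. By the quasi-likelihood test 1 and 0 of these 4 were, with 1 lower at an unadjusted p under 0.05. *ABAT* (dd_Smed_v6_4367_0_1), the transaminase that breaks down GABA, had the largest ratio, 1.55, at 158, 174 and 166 CPM in *nkx2.2(RNAi)* libraries and 109, 103 and 108 CPM in control libraries. *OAT* (dd_Smed_v6_1896_0_1) and *ALDH18A1* (dd_Smed_v6_1060_0_1), which link ornithine, glutamate and proline, had ratios of 1.37 and 1.31. *HAL* (dd_Smed_v6_2219_0_1), the first enzyme of histidine breakdown, was at 163, 193 and 205 CPM in *nkx2.2(RNAi)* libraries and 122, 137 and 141 CPM in control libraries. A second transcript with a *HAL* match, dd_Smed_v6_2970_0_1, had a ratio of 1.36 at a mean control level of 94.8 CPM, just under the limit of the rule. *CPS1* (dd_Smed_v6_4349_0_1), which makes carbamoyl phosphate from ammonia, had the smallest ratio of all members, 1.23. It was nearly constant in *nkx2.2(RNAi)* libraries, at 239.8, 239.8 and 239 CPM, against 185, 208 and 189 CPM in control libraries. *EPRS* (dd_Smed_v6_2488_0_1), the ligase that charges tRNAs with glutamate and proline, was the 1 member among 4 tested tRNA ligases. It had 190.3, 195 and 190.2 CPM in *nkx2.2(RNAi)* libraries, against 100.2, 144 and 129 CPM in control libraries.

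**Figure D3:**
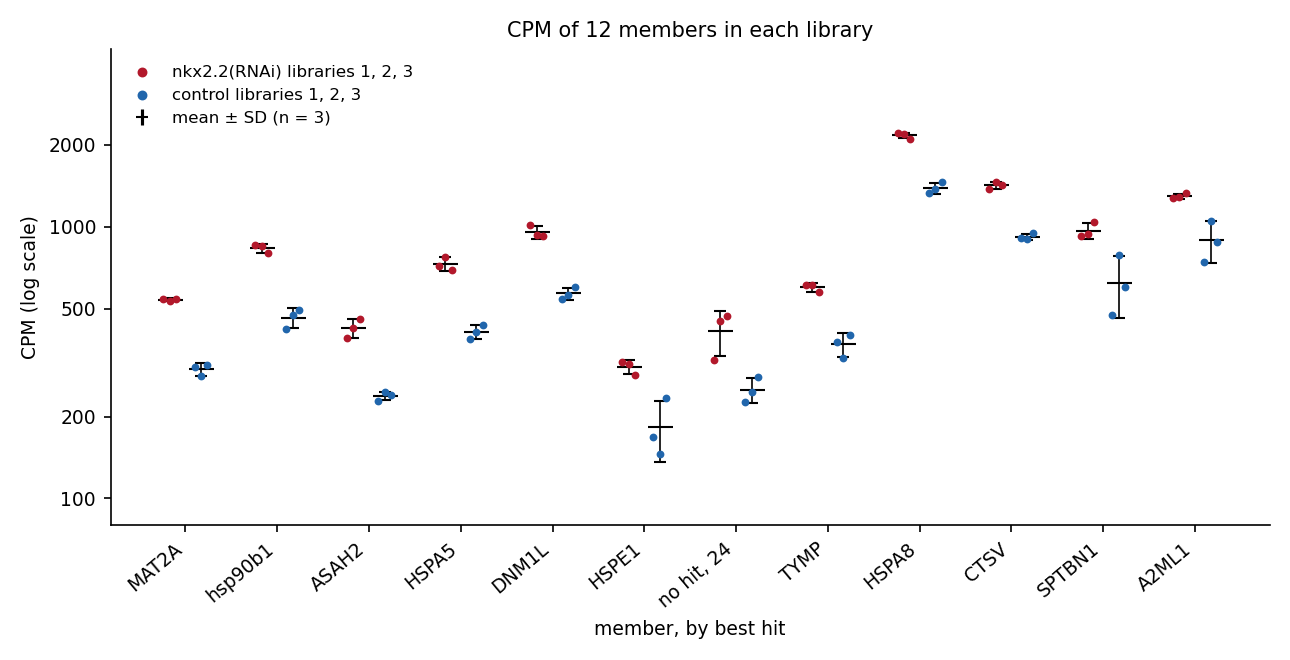
CPM of 12 members in each library on a log scale, with *nkx2.2(RNAi)* libraries (red) left of control libraries (blue), the mean as a bar and the SD as an error bar (n = 3 per group). The groups do not overlap for any of the 12, as the rule requires, while *HSPE1*, *SPTBN1* and *A2ML1* show a wide spread among control libraries.

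The list of cathepsins and lysosome was divided between the members and transcripts that went the other way. Of 21 tested transcripts in this list, which also took in a ceramidase by its name, 6 were members. By the edgeR exact test 12 of the 21 were called higher and 6 lower, where 5.18% and 5.43% of all tested transcripts were. By the quasi-likelihood test 9 and 6 were, where 3.04% and 3.42% of all tested ones were. The list has 3 transcripts in the table ordered by identifier, with 0 members, 0 called higher and 1 called lower by each test. *ASAH2* (dd_Smed_v6_1726_0_1), a ceramidase, which releases sphingosine and fatty acid from ceramide and is known to act at neutral pH, stood at 391, 425 and 459 CPM in *nkx2.2(RNAi)* libraries, against 229, 246 and 240.2 CPM in control libraries, a ratio of 1.78. *CTSV* (dd_Smed_v6_175_0_1), a cysteine protease of the cathepsin L type, was at 1375, 1461 and 1421 CPM in *nkx2.2(RNAi)* libraries and 912, 901 and 944 CPM in control libraries, a ratio of 1.54. Its best match over all animals, zebrafish *ctsla*, and its human match are also those of the intestinal marker *ctsla* (dd_Smed_v6_267_0_1). That marker went the other way, with a ratio of 0.35. *CTSF* (cathepsin F, dd_Smed_v6_456_0_1), another cysteine protease, was at 1381, 1474 and 1477 CPM in *nkx2.2(RNAi)* libraries and 1039.8, 963 and 1058 CPM in control libraries, a ratio of 1.42. For *CTSV* and *CTSF* all 3 *nkx2.2(RNAi)* libraries were at least 1.3 times the highest control library.

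The other 3 members of this list had ratios between 1.31 and 1.35. *CTSA* (dd_Smed_v6_785_0_1), a carboxypeptidase that protects other lysosomal enzymes, averaged 515 ± 25.2 CPM in *nkx2.2(RNAi)* and 383 ± 27.8 CPM in controls, and *ATP6V0C* (dd_Smed_v6_253_0_1), a subunit of the proton pump that acidifies lysosomes, averaged 489.8 ± 12.7 CPM in *nkx2.2(RNAi)* and 375 ± 18.8 CPM in controls (SD, n = 3 each). *GRN* (granulin, dd_Smed_v6_162_0_1) is a short transcript of 228 bases, the shortest of the members, at 508, 534 and 587 CPM in *nkx2.2(RNAi)* libraries and 390.2, 381 and 474 CPM in control libraries.

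Among the lysosomal transcripts outside the members, named after their values were seen, the largest fall in CPM was that of dd_Smed_v6_48_0_1, which matches *CTSL*. It was at 1193, 1387 and 1783 CPM in *nkx2.2(RNAi)* libraries, against 7204, 7171 and 7309 CPM in control libraries (log2 fold change -2.24, edgeR exact test FDR 6.7e-33). *PSAP* (prosaposin, dd_Smed_v6_396_0_1), *GAA* (acid glucosidase, dd_Smed_v6_1062_0_1) and *CTSD* (cathepsin D, dd_Smed_v6_329_0_1) fell as well, with log2 fold changes of -1.72, -0.87 and -0.60 (edgeR exact test FDR 1.2e-49, 1.0e-13 and 5.8e-06). Other cathepsin L-type transcripts rose more than any member. These were dd_Smed_v6_2268_0_1, with a match to *CTSV* and a log2 fold change of 1.91, and dd_Smed_v6_13139_0_1, with a match to *CTSS* and a log2 fold change of 2.21 (edgeR exact test FDR 1.7e-82 and 7.9e-56). Cathepsins thus lay on both sides of the comparison. The rule sets a lower and an upper limit on the ratios of members. That other cathepsins rose or fell more than the members is therefore largely built in.

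Fatty acid use had 4 members of 12 tested transcripts. By the edgeR exact test 7 of the 12 were called higher and 1 lower, where 5.18% and 5.43% of all tested transcripts were. Of the 4 in the table ordered by identifier, 1 was a member, and 1 was called higher and 0 lower by the exact test. By the quasi-likelihood test 0 of these 4 were called, with 1 higher at an unadjusted p under 0.05. *FABP7* (dd_Smed_v6_271_0_1), a carrier of fatty acids in the cytosol, was at 286, 283 and 259 CPM in *nkx2.2(RNAi)* libraries and 203, 182 and 194.5 CPM in control libraries, a ratio of 1.43. *ACSS3* (dd_Smed_v6_3948_0_1), which activates short-chain fatty acids, had a ratio of 1.396, *ACADVL* (dd_Smed_v6_2663_0_1), an enzyme of the first step of beta-oxidation of long chains, 1.35, and *ACSBG2* (dd_Smed_v6_1026_0_1), which activates long-chain fatty acids, 1.34. A rarer transcript that also matches *ACSS3*, dd_Smed_v6_19627_0_1, was at 15.9, 17.0 and 23.0 CPM in *nkx2.2(RNAi)* libraries, against 2.499, 1.74 and 1.62 CPM in control libraries. *ACSL5* (dd_Smed_v6_2009_0_1), which activates long chains too, went the other way, at 29.4, 29.7 and 29.8 CPM in *nkx2.2(RNAi)* libraries and 182, 165 and 181 CPM in control libraries. Both were named after their values were seen.

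Another 3 lists were made from Gene Ontology terms for another dataset, and so were not chosen on these libraries. Lipid transport had 0 members among 17 abundant transcripts, triglyceride metabolism had 2 among 27 (*FABP7* and *CPS1*), and cholesterol metabolism had 1 among 29 (*ACADVL*). By the edgeR exact test, 3 of 49 tested transcripts of lipid transport were called higher and 8 lower (0 and 8 by the quasi-likelihood test, 3 and 10 by DESeq2, with 6 higher at an unadjusted p under 0.05 in each edgeR test). For triglyceride these counts were 10 higher and 22 lower of 144 (4 and 21 by the quasi-likelihood test), and for cholesterol 10 and 22 of 156 (6 and 18 by the quasi-likelihood test). Members made up 5.47% of all abundant transcripts, and the numbers of members in these lists are too small to be read as few or many. Of all tested transcripts, 5.18% were called higher and 5.43% lower by the exact test. By the quasi-likelihood test 3.04% and 3.42% were, and by DESeq2 4.96% and 5.77%.

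The actin and membrane skeleton was the list with the most members, 13 of 32 tested transcripts. By the edgeR exact test 19 of the 32 were called higher and 5 lower, where 5.18% and 5.43% of all tested transcripts were. By the quasi-likelihood test 16 and 4 were, where 3.04% and 3.42% of all tested ones were. Among the 6 of this list in the table ordered by identifier, 0 were members. By the exact test, the quasi-likelihood test or DESeq2, 0 of these 6 were called in either direction. At an unadjusted p under 0.05, 2 of the 6 were higher and 1 lower in each edgeR test. The summed level of the 13 was 6453, 6436 and 6745 CPM in *nkx2.2(RNAi)* libraries, against 4437, 4969 and 4667 CPM in control libraries. Alpha-actinins, which cross-link actin filaments, had 2 members, *ACTN4* (dd_Smed_v6_1492_0_1) and *ACTN1* (dd_Smed_v6_1951_0_1). *ACTN4* was at 290.1, 287 and 328 CPM in *nkx2.2(RNAi)* libraries and 184, 189 and 203 CPM in control libraries, a ratio of 1.57, and *ACTN1* had a ratio of 1.29. The list holds 2 rarer transcripts that match *ACTN2*, named after their values were seen. Of these, dd_Smed_v6_7964_0_1 fell (log2 fold change -0.42, edgeR exact test FDR 0.0025), and dd_Smed_v6_10174_0_1 was not called (log2 fold change -0.50, edgeR exact test FDR 0.10).

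The spectrin skeleton under the plasma membrane was represented by its beta chain and its partners. *SPTBN1* (beta spectrin, dd_Smed_v6_1122_0_1, 7261 bases) was the longest member, at 925, 937 and 1040.2 CPM in *nkx2.2(RNAi)* libraries and 472, 787 and 599.9 CPM in control libraries. *ANK3* (dd_Smed_v6_1432_0_1), an ankyrin, which ties spectrin to membrane proteins, was at 425, 409 and 448 CPM in *nkx2.2(RNAi)* libraries and 246, 332.4 and 277 CPM in control libraries. *EPB41L3* (dd_Smed_v6_1613_0_1) and *ADD1* (adducin, dd_Smed_v6_1425_0_1), which join spectrin to actin, had ratios of 1.32 and 1.2997. Control replicate 2 was the highest control for all 4 of these long transcripts. *DST* (dd_Smed_v6_1205_0_1), a giant spectrin relative that links filament systems, missed the rule because of that library, at 338, 314 and 355 CPM in *nkx2.2(RNAi)* libraries and 164, 319 and 192 CPM in control libraries.

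The remaining members of this list serve contraction, bundling and turnover of actin. *MYH10* (dd_Smed_v6_791_0_1), a non-muscle myosin heavy chain, had a ratio of 1.41, and *MYL12B* (dd_Smed_v6_383_0_1), a regulatory light chain of such myosins, a ratio of 1.33. *PLS3* (plastin, dd_Smed_v6_749_0_1), which bundles filaments, was at 987, 925 and 921 CPM in *nkx2.2(RNAi)* libraries and 735, 692 and 701 CPM in control libraries. *CAP2* (dd_Smed_v6_727_0_1), which helps to recycle actin monomers, was among the least variable members, at 558, 569.9 and 552 CPM in *nkx2.2(RNAi)* libraries and 435, 425 and 427 CPM in control libraries. *LASP1* (dd_Smed_v6_1218_0_1), a septin (dd_Smed_v6_1509_0_1) and a transcript that matches *LIMA1* (dd_Smed_v6_921_0_1) had ratios of 1.52, 1.47 and 1.31. 

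Of 6 tested tubulins, the subunits of microtubules, 1 was a member, and 2 were called higher and 1 lower by the edgeR exact test. By this test 5.18% and 5.43% of all tested transcripts were. The member, an alpha tubulin (*TUBA1A*, dd_Smed_v6_124_0_1), was at 1172, 1296 and 1274 CPM in *nkx2.2(RNAi)* libraries and 911, 878 and 941 CPM in control libraries. A second transcript with the same human match, dd_Smed_v6_452_0_1, fell to 657, 677 and 695 CPM in *nkx2.2(RNAi)* libraries, against 1245, 1172 and 1233.5 CPM in control libraries (log2 fold change -0.78, edgeR exact test FDR 2.7e-11). Another, dd_Smed_v6_648_0_1, overlapped between the groups, at 483, 469.8 and 429.8 CPM in *nkx2.2(RNAi)* libraries and 484, 452 and 486 CPM in control libraries. Reads that match several transcripts were counted at each of them, so values of such close relatives can share reads.

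**Figure D4:**
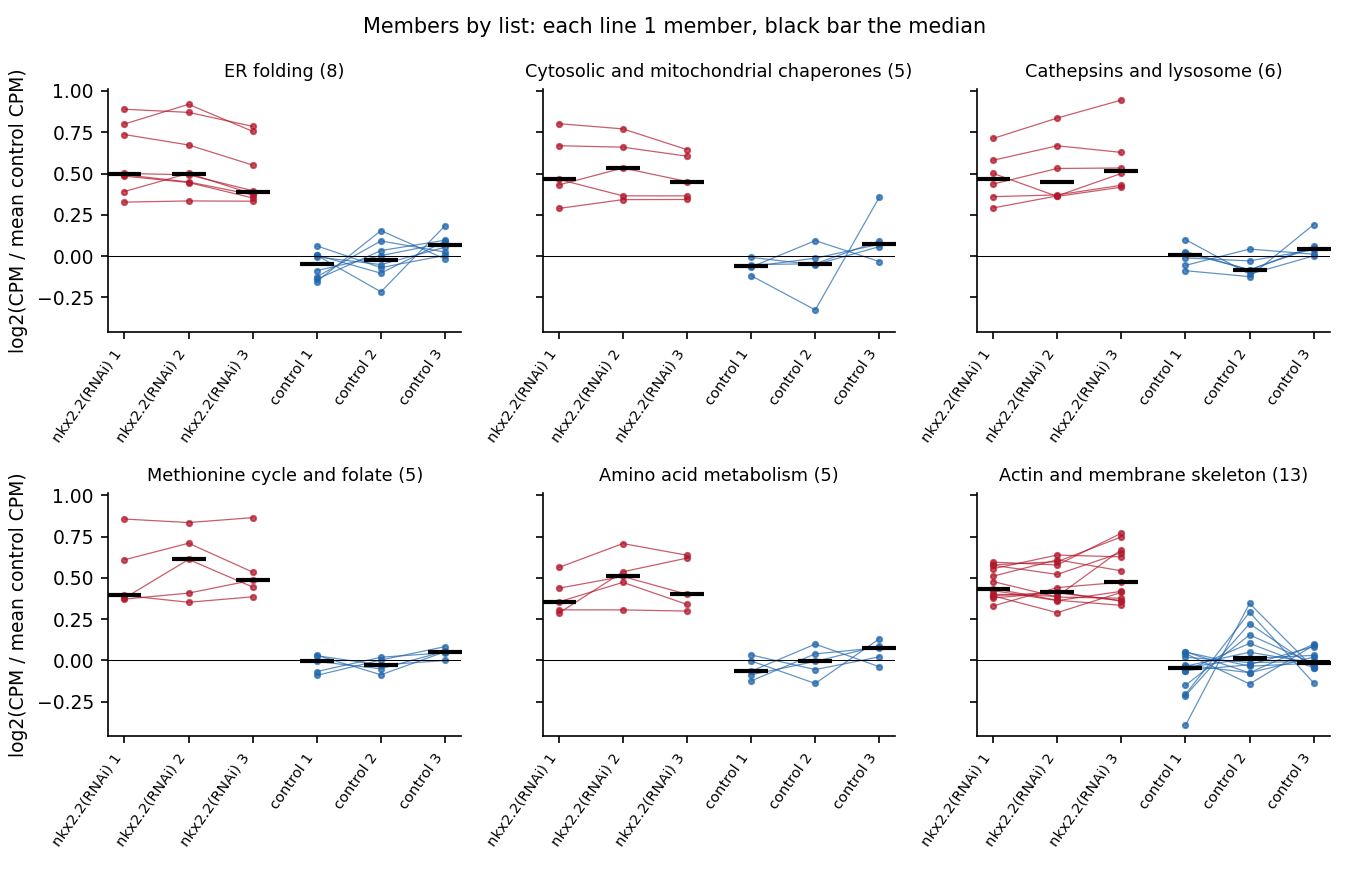
Members of 6 lists, with the log2 of CPM over the mean control CPM on the y axis, each library on the x axis, thin lines joining the values of 1 member within a group and black bars giving the median. *nkx2.2(RNAi)* libraries (red) lie above 0 for every member, as the rule requires, and the order of the 3 libraries differs between lists.

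Other lists held 1 or 2 members each. *A2ML1* (dd_Smed_v6_568_0_1), of the alpha-2-macroglobulin type of protease traps, was at 1276, 1288 and 1327 CPM in *nkx2.2(RNAi)* libraries and 744, 1054 and 881 CPM in control libraries. *DUSP6* (dd_Smed_v6_653_0_1), a phosphatase that switches off ERK-type MAP kinases, was at 521, 498 and 524 CPM in *nkx2.2(RNAi)* libraries and 348, 321 and 353 CPM in control libraries, a ratio of 1.51. *MIB1* (dd_Smed_v6_1704_0_1), a ubiquitin ligase for Notch ligands, had a ratio of 1.38, and the list of ubiquitin and proteasome transcripts had this 1 member of 52 tested, with 19 called higher and 9 lower by the edgeR exact test. The list was made from names, and *UBB*, also a member, is not in it because its match carries another description. The small GTPases *RAB13* (dd_Smed_v6_2966_0_1) and *RAC1* (dd_Smed_v6_913_0_1) had ratios of 1.25 and 1.24. Of 23 tested small GTPases, 6 were called higher and 9 lower by the edgeR exact test. By this test 5.18% and 5.43% of all tested transcripts were. Neither of these GTPase members met the rule with CPM scaled by TMM factors or with the trend with length or abundance taken out. Ribosomal proteins had 0 members among 7 abundant transcripts. By the edgeR exact test 2 of 14 tested ribosomal transcripts were called higher and 0 lower (0 and 0 by the quasi-likelihood test, 3 and 0 by DESeq2), with 8 higher and 2 lower at an unadjusted p under 0.05.

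Of the members outside the lists, 26 had a match. *DNM1L* (dd_Smed_v6_388_0_1), a dynamin relative that divides mitochondria and peroxisomes, stood at 1012, 929 and 921 CPM in *nkx2.2(RNAi)* libraries, against 543, 561 and 599.8 CPM in control libraries, a ratio of 1.68. A second transcript with the same match, dd_Smed_v6_1074_0_1, was at 176, 179 and 180.1 CPM in *nkx2.2(RNAi)* libraries and 142, 138 and 135 CPM in control libraries, a ratio of 1.29. *TYMP* (dd_Smed_v6_869_0_1), thymidine phosphorylase, was at 612, 611 and 574 CPM in *nkx2.2(RNAi)* libraries and 377, 329 and 401 CPM in control libraries, a ratio of 1.62. *UBB* (dd_Smed_v6_422_0_1), a ubiquitin precursor, had a ratio of 1.58 and was at 264, 305 and 318 CPM in *nkx2.2(RNAi)* libraries and 184, 179 and 198 CPM in control libraries. A prolyl isomerase of the cyclophilin kind (dd_Smed_v6_457_0_1) averaged 690.1 ± 33.1 CPM in *nkx2.2(RNAi)* and 467 ± 43.8 CPM in controls (SD, n = 3 each), and was among the 10 highest members per length.

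The 21 members without a match were shorter, with a median of 1154 bases against 2201 bases for the 79 with one, and 9 of the 16 members under 1000 bases were among them. Their ratios ran from 1.26 to 1.65 with a median of 1.38, which is also the median of the members with a match (1.38). The member with the highest level per length was one of these, dd_Smed_v6_21_0_1 (430 bases), with a mean of 3665 TPM in *nkx2.2(RNAi)* and 2527 TPM in controls. It was at 987, 1295 and 1276 CPM in *nkx2.2(RNAi)* libraries and 787, 775 and 893 CPM in control libraries. The largest ratio without a match was that of dd_Smed_v6_24_0_1 (487 bases), at 324, 449 and 468 CPM in *nkx2.2(RNAi)* libraries and 227, 247 and 280.2 CPM in control libraries. For both, *nkx2.2(RNAi)* replicate 1 was well below the other 2 libraries of its group. The next, dd_Smed_v6_270_0_1 (941 bases), was at 732, 780.4 and 784 CPM in *nkx2.2(RNAi)* libraries and 499, 439.8 and 502 CPM in control libraries. Of the 10 members with the highest level per length, 4 had no match, 3 were chaperones or prolyl isomerases (*HSPA8*, *CALR* and dd_Smed_v6_457_0_1) and 3 were *GRN*, *CTSV* and *CTSF*.

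The libraries of a group did not deviate in the same way for short and long members. Among the 16 members under 1000 bases, *nkx2.2(RNAi)* replicate 1 was the lowest of its group for 14, and its median log2 ratio to the mean control level was 0.37, against 0.62 and 0.61 in replicates 2 and 3. Among the 20 members of 3000 bases or more, control replicate 2 was the highest control for 19, with a median of 0.20, against -0.21 and -0.02 in control replicates 1 and 3. The same held over all abundant transcripts. Under 1000 bases the medians were 0.00, 0.13 and 0.09 in *nkx2.2(RNAi)* replicates 1 to 3 and 0.03, -0.06 and 0.02 in control replicates 1 to 3. At 3000 bases or more they were 0.13, 0.00 and 0.06 in *nkx2.2(RNAi)* replicates 1 to 3, against -0.08, 0.09 and -0.03 in control replicates 1 to 3. With each library's trend with length taken out, a step chosen after seeing the data, the rule kept 75 of the 100 members and found 76 in all, and with the trend with abundance taken out it kept 65. Of the ER list 7 of 8 members were kept in each case, of the actin list 12 and 8 of 13, and of the members in no list 32 and 27 of 47. Of the amino acid list 4 and 2 of 5 were kept, and of cathepsins and lysosome 5 and 4 of 6. Among others, *CPS1*, *HSPA4L*, *GRN* and *ACSBG2* did not meet the rule with either trend taken out or with CPM scaled by TMM factors.

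**Figure D5:**
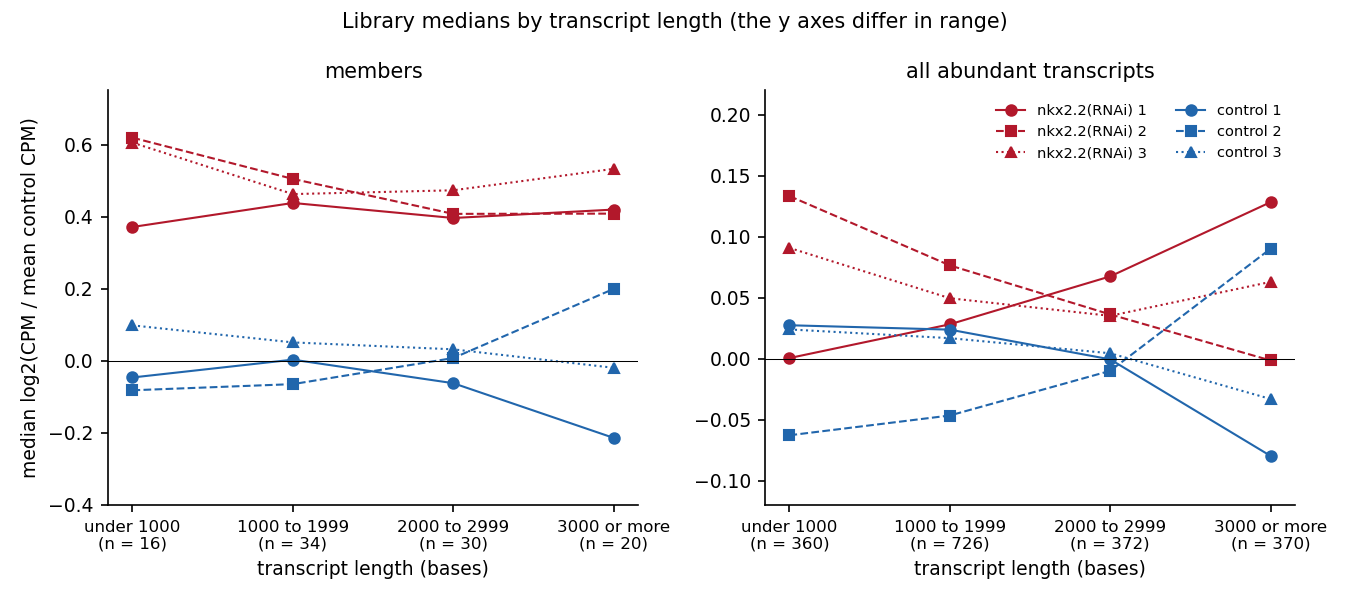
Median log2 of CPM over the mean control CPM in each library (y axis) for 4 classes of transcript length (x axis), for members at the left and all abundant transcripts at the right, with *nkx2.2(RNAi)* libraries in red and control libraries in blue. *nkx2.2(RNAi)* replicate 1 is the lowest of its group for short transcripts and control replicate 2 the highest of its group for long ones in both panels.

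The same criteria turned round, with each *nkx2.2(RNAi)* library at most the mean control CPM divided by 1.2 and below all control libraries and a ratio above 0.5, found 58 transcripts, or 3.17% of the abundant ones against 5.47% for the members. Their median ratio was 0.71 and their median length 1665 bases. Listed transcripts among them were *GAA*, *CTSD*, the alpha tubulin dd_Smed_v6_452_0_1, *USP4* (dd_Smed_v6_2112_0_1), a deubiquitinase, and *NLK* (dd_Smed_v6_4742_0_1), a kinase related to MAP kinases, with ratios of 0.52, 0.63, 0.56, 0.70 and 0.71. The ER, chaperone, methionine, amino acid, fatty acid and actin lists had 0, but the lists were made from names with results known. Enzymes of amino acids that the lists left out, *ALDH7A1* (dd_Smed_v6_1493_0_1) and *aspdh* (dd_Smed_v6_1769_0_1), were among the 58, with ratios of 0.65 and 0.66. So were matches to actin regulators that the actin list left out, *WASHC5* (dd_Smed_v6_3369_0_1) and *ABI2* (dd_Smed_v6_987_0_1), with ratios of 0.62 and 0.76. Lysosomal matches that the lists left out, *SLC17A5* (sialin, dd_Smed_v6_1874_0_1) and *RNASET2* (dd_Smed_v6_1008_0_1), were among the 58 too, with ratios of 0.59 and 0.70. CPM values of a library add up to a fixed total, so levels of different transcripts are not independent. The 114 abundant transcripts called lower by the edgeR exact test (6.24% of them) summed to 22841 ± 1373 CPM in *nkx2.2(RNAi)* and 54474 ± 1342 CPM in controls, and the 197 called higher summed to 84771 ± 2891 CPM in *nkx2.2(RNAi)* and 63083 ± 1979 CPM in controls (SD, n = 3 each). The part of this in the members' ratios was not tested.

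The limits of the rule cut through a continuous range. Just inside the limit of 100 CPM were dd_Smed_v6_229_0_1 and dd_Smed_v6_2887_0_1, with mean control levels of 101 and 102 CPM, and just outside were *PDLIM7* (dd_Smed_v6_3339_0_1) and *NCALD* (dd_Smed_v6_2568_0_1), with 97.7 and 97.5 CPM. At the limit of 1.2 the lowest *nkx2.2(RNAi)* library of *ALDH3B1* (dd_Smed_v6_1680_0_1) and *ACSBG2* stood at 1.204 and 1.206 times the mean control level, while *ARHGDIA* (dd_Smed_v6_730_0_1) and dd_Smed_v6_2443_0_1 missed it, at 1.199 and 1.197. No transcript lay near a ratio of 2. The nearest members were *MAT2A* and *hsp90b1* at 1.80, and the only transcript outside was *INPP5A* (dd_Smed_v6_266_0_1), a phosphatase of inositol phosphates, with a ratio of 2.37. The separation of the libraries was narrowest for *MUC19* (dd_Smed_v6_1647_0_1) and *ARAP2* (dd_Smed_v6_4332_0_1), whose lowest *nkx2.2(RNAi)* and highest control libraries were at 157.2 and 156.97 CPM and at 133.1 and 132.7 CPM. It was missed by *DST* and dd_Smed_v6_125_0_1. In all of these the highest control was control replicate 2.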

How the data were processed

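RNA of whole, uninjured planarians was sequenced in 3 *nkx2.2(RNAi)* and 3 control libraries. The authors trimmed the reads with BBDuk, aligned them with Bowtie2 2.3.1, keeping all alignments, to unique dd_Smed_v6 transcripts, and summed them with featureCounts (Subread 1.6.3), counting reads that match several transcripts at each. The deposited table holds raw counts for 28069 transcripts with their lengths, and totals of 53.3 to 65.5 M per library. Whether the values count fragments, reads or alignments is not given in the sources used here, and a nameless last row with 0 counts was left out. The authors' own log2 fold changes, log2 CPM and FDR (adjusted p-values), deposited as another table, were not used.

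CPM is the count divided by the column sum, times 1000000. Ratios are of group means, errors are SDs over 3 libraries, and the replicates are the separate pools that the labels call biological replicates. Calls come from edgeR 4.0.16 in R 4.3.3 (TMM factors, exact test, two-sided, 14871 transcripts that exceeded 1 CPM in 3 or more libraries, Benjamini-Hochberg FDR of 0.05), as in the study's methods. The quasi-likelihood test and DESeq2 1.42.0 were alternatives. On simulated counts for 14693 transcripts with 198 changed, the exact test recovered 182 with 17.6% false calls. The quasi-likelihood test recovered 174 with 9.84%, and DESeq2 181 with 19.6%. In this 1 simulated set the share of false calls was above the FDR limit of 0.05 for each test, and smallest for the quasi-likelihood test. Counts on the real libraries may be liberal as well, which 1 simulated set cannot settle. Recovery was not split by size, and recovery of ratios as modest as those of the members was not tested.

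Members, lists and tests were chosen with earlier results of these data known. Names are mostly the best human BLAST matches (E at most 1e-10) from the study's supplementary tables, which cover 3100 transcripts here. They can differ from the best match over all animals searched. Members are named when they are in a list, among the 10 largest ratios or the 10 highest control levels per length, or nearest to a limit of the rule, and the other transcripts of their assembly components are named too. Other transcripts named were chosen after their values were seen. No sequences of members were used here.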

Additional observations from a re-analysis of the deposited data

How the results depend on the processing

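The number of members, 100, follows from the limits of the rule. It was 243 with a limit of 1.1 times the control mean and 42 with 1.3, and 169 with a mean control level of at least 50 CPM and 52 with 200 CPM. With each library's trend with abundance taken out it was 65, a step chosen after seeing the data, as was the trend with length (76). The rule turned round gave 58 transcripts as reported, 131 and 30 with the limits of 1.1 and 1.3, 115 and 28 with 50 and 200 CPM, and 89 and 94 with the trends with length and abundance taken out. Leaving out each library in turn gave 91 to 199 members and 60 to 154 transcripts turned round, and in both cases the largest number came without *nkx2.2(RNAi)* replicate 1. Scaling by TMM or relative log expression factors and summing by assembly component kept both numbers within 1.5 times.

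Over all tested transcripts the exact test called 771 higher and 808 lower, and the quasi-likelihood test 452 and 509. Leaving out each library gave 292 to 2097 higher and 418 to 2508 lower, and 66 to 133 of the listed transcripts called higher (119 with all libraries). The members' median log2 fold change, 0.53 in the edgeR fit, was 0.46 with library size only, 0.41 and 0.39 with the trends with length and abundance taken out, and 0.44 to 0.60 with each library left out. The medians over all abundant and all tested transcripts were 0.12 and 0.02 in the same fit. The cause of these changes was not tested. For the 62 members named by the rule, all 806 log2 fold changes over 13 alternatives were positive, between 0.30 and 1.03, as the choice of members largely fixes.

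Libraries with the same replicate number were not treated as paired. Deviations from the group means of same-numbered libraries correlated at 0.40, -0.02 and 0.17 over 14871 transcripts, and not every library correlated best with its own number. The quasi-likelihood test with replicate block called 797 transcripts higher and 1075 lower, and all 100 members higher, with a median log2 fold change of 0.53 for the members and 120 listed transcripts higher. The depth of 53.3 M counts or more leaves little counting error at 100 CPM. Reads shared by close relatives were not measured.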
